A study of Mus musculus with 13 samples.

Results

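Setdb1 and 8 genes whose products work with it or with the HUSH silencing complex were followed in mouse embryonic fibroblasts (MEFs) depleted of Setdb1. The genes were Setdb1, Atf7ip, Atf7ip2, Trim28, Mphosph8, Pphln1, Morc2a, Mbd1 and Smchd1, taken by symbol from a table of 25900 genes. They occupied 10 of the 25965 gene intervals of the table, because Atf7ip was listed as 2 intervals. Of these 10 intervals, 9 passed the filter for testing, at least 1 RPM in at least 3 of 12 libraries (RPM counts the reads in a gene for a library brought to a fixed size), and Atf7ip2 did not.

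The cells of the 12 hairpin libraries were primary female MEFs from E13.5 embryos. They carried 1 X chromosome with the Xist∆A deletion and 1 X chromosome of the PGK strain. They were transduced with retroviral short hairpins, selected with puromycin, grown with or without the DNA methylation inhibitor 5-azacytidine (5-aza) for 24 h from day 3, and harvested on day 7. A control or a Setdb1 hairpin, each with or without the drug, gave 4 groups of 3 libraries. Replicate 1 of each group carried Luc (against luciferase) or shSetdb1.6, whereas replicates A and B carried the non-silencing hairpin Nons or shSetdb1.4. The study describes the cells given Setdb1 hairpins as Setdb1 +/gt, with 1 gene-trap allele, and those given Nons as wild type. The labels name no genotype or embryo for any library, and the genotype of the Luc cells is not stated, so hairpin and genotype cannot be told apart. Nothing states that libraries of a group came from separate embryos, so p-values measure the spread between these libraries, which may be technical. A further library with 5-aza and no named hairpin, of unstated genotype, entered no comparison.

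Setdb1 is a methyltransferase that places methyl groups on lysine 9 of histone H3 (H3K9), a mark of silent chromatin found at retroelements, imprinted genes and the inactive X chromosome. It does not choose its targets alone. Trim28 brings it to sites bound by KRAB zinc finger proteins, Mbd1 links it to methylated DNA, and the HUSH complex, which contains Mphosph8 and Pphln1, recruits it together with the ATPase Morc2a. Atf7ip binds Setdb1 and is known to stabilise the protein and keep it in the nucleus. Smchd1, an SMC-like protein, is known for keeping many genes on the inactive X chromosome silent.

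The parts of hairpin and gene-trap allele in the depletion of Setdb1 cannot be told apart. The guide strands of the 2 Setdb1 hairpins are shown here because the level of Setdb1 is the starting point of every comparison. Each is written as DNA, 5′ to 3′, with the seed (bases 2 to 8) in capitals.
shSetdb1.4: tTTGTCTGcaaagtcatctgtc
shSetdb1.6: tAGATCTTgagaactgcttttc
The complement of each 22-base guide was found at full length in transcripts of 1 gene, Setdb1, and in those of no other gene of the GENCODE annotation. The shSetdb1.4 site lay in exon 16 of 22 of the Setdb1 transcript ENSMUST00000015841.11 (GRCm38, minus strand, chr3:95327805-95327826). The shSetdb1.6 site lay in exon 5 of that transcript (chr3:95348003-95348024). Both sites were in coding sequence. The study places the gene-trap insertion in an intron of Setdb1. Reads in the Setdb1 interval were not split by allele, so the level of intact Setdb1 RNA was not measured. The guides of Luc and Nons had no full-length match in any transcript.

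Reads in genes numbered 36.4 to 51.3 M per hairpin library. All 8 fibroblast markers examined were detected in every group, with a summed level of 22721 to 34969 RPM. The summed level of 5 endothelial markers was 2.36 to 5.69 RPM, with overlapping groups. The sum of 7 macrophage markers was higher with 5-aza, without overlap. It was 13.0 to 15.3 RPM against 10.2 to 11.2 RPM in control hairpin cells and 13.0 to 13.6 RPM against 10.1 to 10.9 RPM in Setdb1 hairpin cells. Of all tested intervals, 37.6% and 43.4% did not overlap in these comparisons. Of the 3 macrophage genes tested 2 were called higher in each, where 18.8% and 28.9% of all tested intervals were called in either direction. With 5-aza in both arms, 1 of the 3 was called lower with a Setdb1 hairpin, where 5.37% of all tested intervals were called lower. In Setdb1 hairpin cells Emr1 was at 0, as was Tyrobp with 5-aza. The epithelial list (Epcam, Cdh1, Krt8, Krt18 and Cldn6) moved with the groups. Its sum was 2.67 to 3.20 RPM in the control libraries, where Cldn6 was at 0, and 8.61 to 10.6 RPM in the control libraries with 5-aza. It was 9.64 to 10.6 RPM with a Setdb1 hairpin and 21.2 to 23.8 RPM with a Setdb1 hairpin and 5-aza. Its 2 tested genes were called higher with a Setdb1 hairpin, with and without 5-aza, and after 5-aza in control and Setdb1 hairpin cells. The sum of 5 neural markers was 306 to 366 RPM in the control libraries and 375 to 427 RPM in those with 5-aza. It was 410 to 464 RPM with a Setdb1 hairpin and 456 to 528 RPM with a Setdb1 hairpin and 5-aza. Of the 4 neural markers tested, 4 were called higher with a Setdb1 hairpin without 5-aza and 2 with it. Of all tested intervals 9.01% and 14.5% were called higher in these comparisons. After 5-aza 1 was called higher and 1 lower in control hairpin cells, where 18.8% of all tested intervals were called in either direction. In Setdb1 hairpin cells 0 were called higher and 1 lower, where 28.9% of all tested intervals were called. The part of these cell types in the results was not tested.

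Per kilobase of annotated exon, Trim28 was the most abundant of these transcripts in control cells and Atf7ip2 the least. Trim28 was at 50.9 ± 0.901 RPM per kb (SD, n = 3). The HUSH subunits Mphosph8 and Pphln1 followed at 15.0 ± 0.228 and 14.5 ± 0.167 RPM per kb, and Morc2a at 12.4 ± 0.194. Setdb1 ranked 5 of the 10 intervals at 6.75 ± 0.0150 RPM per kb. The long Atf7ip interval (5.33 ± 0.200), the 3′ Atf7ip interval (4.95 ± 0.345) and Smchd1 (4.79 ± 0.0789) came next, and each overlapped its lower neighbour in this order except Smchd1. Mbd1 was at 3.55 ± 0.363 and Atf7ip2 at 0.0590 ± 0.0280 RPM per kb. With a Setdb1 hairpin, Setdb1 ranked 9 of 10 at 2.05 ± 0.250 RPM per kb, while the Atf7ip intervals ranked 5 and 6 at 12.1 ± 0.539 and 10.8 ± 0.332. Exon length was taken over all transcripts of a gene, and the annotation used for the deposited table is not stated, so these levels order the genes only roughly.

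**Figure D1:**
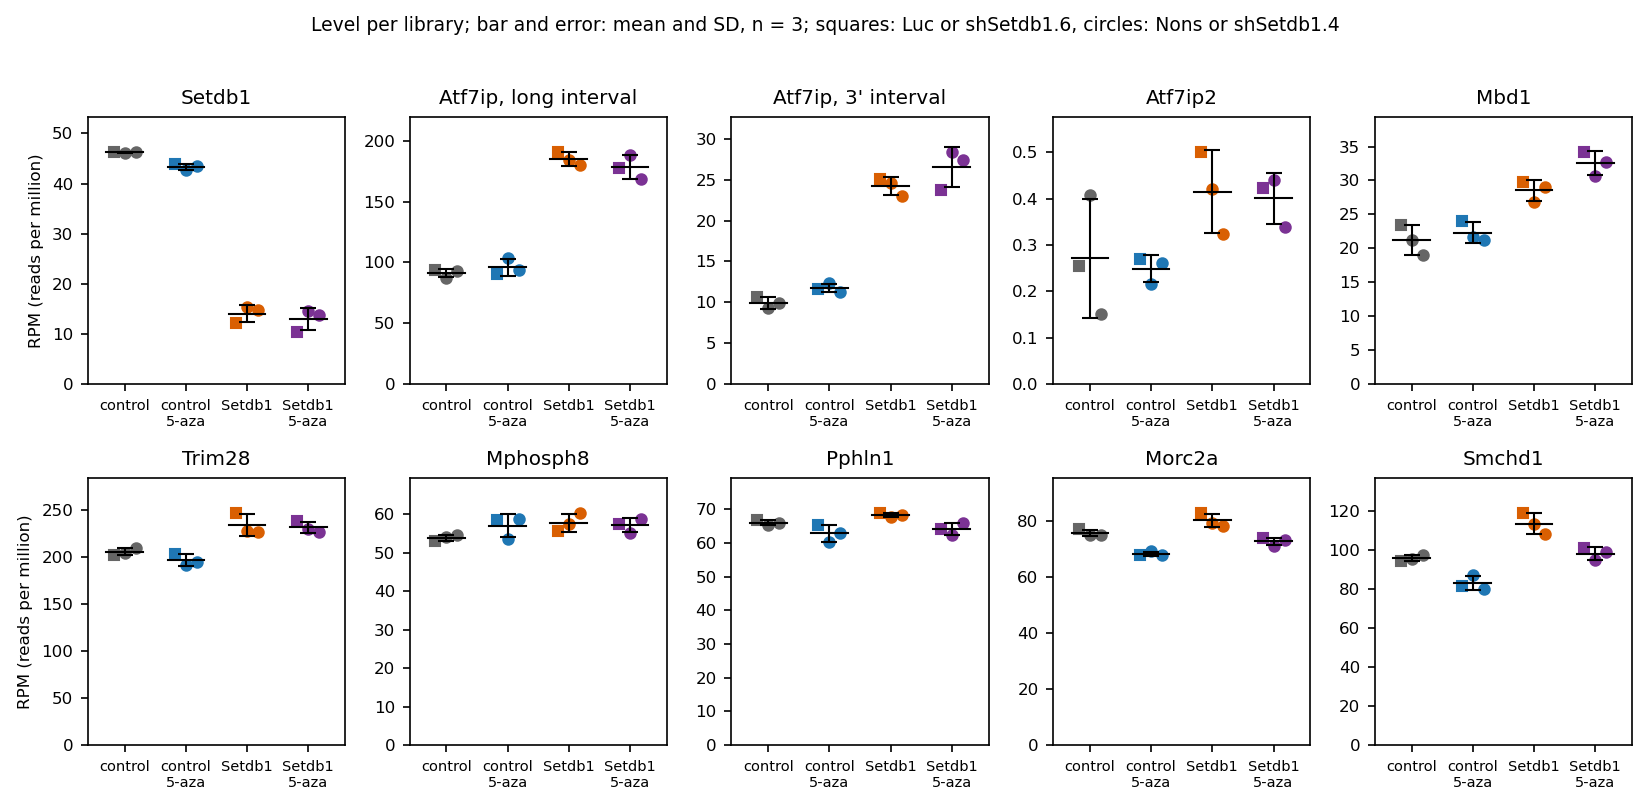
Level of each interval in RPM (y axis, from 0) in the 12 libraries, by group (x axis); squares are Luc or shSetdb1.6, circles are Nons or shSetdb1.4, and bars give the mean and SD of 3 libraries. Setdb1 falls from 46.3 to 14.1 RPM and the long Atf7ip interval rises from 91.1 to 185 RPM, while Mphosph8 and Pphln1 stay within 53.0 to 60.4 RPM and 60.3 to 69.0 RPM across all libraries.

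The first comparison asked how these genes differed between Setdb1 hairpin and control hairpin cells without 5-aza. Setdb1 RNA fell to 30.4% of its control level, Atf7ip RNA doubled, and Mbd1, Smchd1 and Trim28 rose by smaller amounts. The HUSH subunits Mphosph8 and Pphln1 and the HUSH partner Morc2a did not pass the test. In all, 5 of the 8 tested intervals other than Setdb1 were called higher and none lower at an adjusted p under 0.05 (limma, Benjamini-Hochberg over 13134 intervals). Of all tested intervals 12.4% were called, 9.01% higher and 3.4% lower. The median log2 fold change of these 8 intervals was 0.21, against 0.03 for all tested intervals. Both intervals of Atf7ip, a single gene, were counted among the 5 and in this median. The genes were chosen with earlier results of these data known. When each library was centred on its median, 791 of 1648 called intervals of the whole table were higher, against 1183 of 1630 as deposited, and 6 of the 9 intervals described here were called either way.

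Setdb1 (ENSMUSG00000015697, chromosome 3, 95323525 to 95357202) was at 46.4, 46.1 and 46.3 RPM in the control libraries and at 12.1, 15.4 and 14.7 RPM in the libraries with a Setdb1 hairpin. The groups were far apart, and the lowest value was that of shSetdb1.6. The fitted log2 fold change was -1.73 (SE 0.11, adjusted p = 1.52e-06). Among all 13134 tested intervals this fall ranked 7. The Setdb1 interval overlapped the gene Lass2 on the opposite strand by 64 bases. Strand use in counting is not stated, and Lass2 was at 111 RPM in control and 115 RPM in Setdb1 hairpin cells. In bulk RNA, fewer cells expressing a gene and less RNA per cell cannot be told apart.

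Atf7ip (ENSMUSG00000030213, chromosome 6), the binding partner of Setdb1, was measured over both of its intervals. The long interval (136518851 to 136607377) covered nearly the whole gene. It held 93.5, 87.2 and 92.5 RPM in the control libraries and 191, 184 and 180 RPM with a Setdb1 hairpin. Every library with a Setdb1 hairpin was thus near double the control level, with either hairpin. In log2 terms the change was 1.02 (SE 0.06, adjusted p = 5.20e-07, 95% interval 0.90 to 1.14).

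The second Atf7ip interval (136608859 to 136610870) lay, but for its last few bases, in the annotated 3′ UTR within the last exon, exon 15 of transcript ENSMUST00000032335.12. It held 10.6, 9.24 and 9.88 RPM in the control libraries and 25.1, 24.6 and 23.0 RPM with a Setdb1 hairpin, again without overlap. This was a log2 fold change of 1.29 (SE 0.07, adjusted p = 6.22e-07). This interval thus moved the same way as the long one. The 3′ interval was 10.9 ± 0.417% of the long interval in control cells and 13.1 ± 0.289% with a Setdb1 hairpin (SD, n = 3), and the groups did not overlap. The difference of 2.22 percentage points had an exact permutation p of 0.1 (two-sided, adjusted p = 0.133 over 4 comparisons), which is the smallest p that 3 against 3 libraries allow.

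As Setdb1 fell and Atf7ip rose, the ratio of their RPM values went from 1.97 ± 0.0696 to 13.3 ± 2.12 (SD, n = 3). With 5-aza it went from 2.21 ± 0.193 to 14.1 ± 2.54. The highest ratios, 15.8 and 17.0, belonged to the libraries with shSetdb1.6, where Setdb1 was lowest. The ratio has no test of its own, since both of its terms were tested above.

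**Figure D2:**
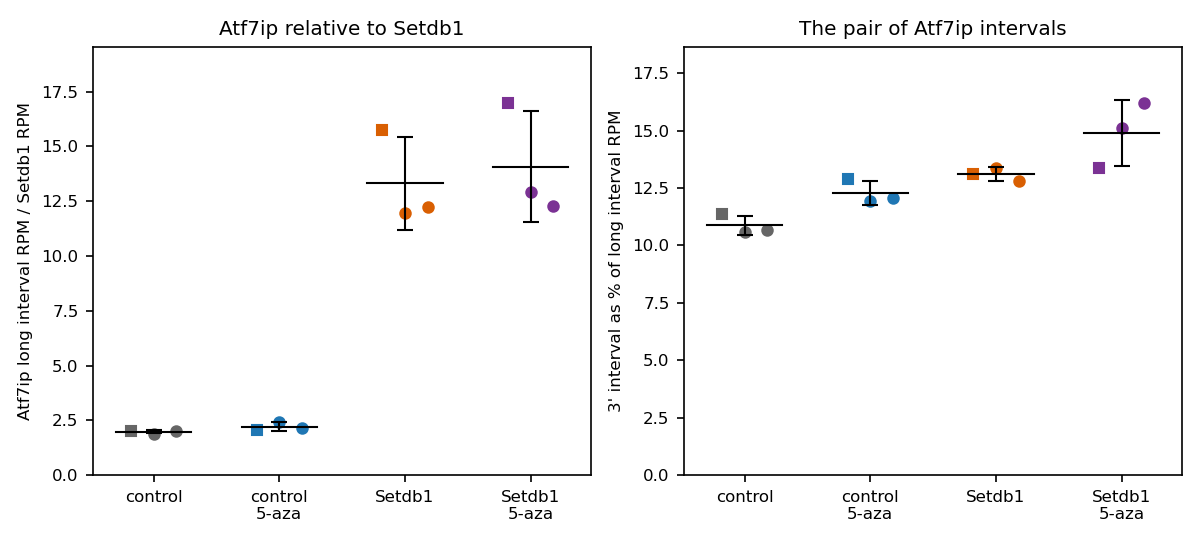
Left, ratio of the RPM of the long Atf7ip interval to that of Setdb1; right, the 3′ Atf7ip interval as a percent of the long one (y axes, from 0), in each library by group (x axis), with the mean and SD of 3 libraries; squares mark replicate 1. The ratio is 1.89 to 2.42 in all control hairpin libraries and reaches 17.0 among the Setdb1 hairpin libraries, all of which lie far above the controls.

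Promoter sequence was compared because 5-aza inhibits DNA methylation, a mark of CG dinucleotides, and because Atf7ip has a paralog, Atf7ip2, that is barely expressed here. In the RefSeq promoters of GRCm38.p6 (250 bases before to 50 after the start), 8 of the 9 genes were matched. The CG dinucleotides are in capitals.
Atf7ip, chr6:136518601-136518900, plus strand: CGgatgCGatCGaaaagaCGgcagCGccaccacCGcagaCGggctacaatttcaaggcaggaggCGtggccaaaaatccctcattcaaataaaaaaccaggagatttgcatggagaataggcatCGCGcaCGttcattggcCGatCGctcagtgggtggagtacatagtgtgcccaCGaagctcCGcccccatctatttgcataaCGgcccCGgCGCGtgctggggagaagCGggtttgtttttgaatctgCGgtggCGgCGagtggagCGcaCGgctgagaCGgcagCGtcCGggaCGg
Atf7ip2, chr16:10192656-10192955, plus strand: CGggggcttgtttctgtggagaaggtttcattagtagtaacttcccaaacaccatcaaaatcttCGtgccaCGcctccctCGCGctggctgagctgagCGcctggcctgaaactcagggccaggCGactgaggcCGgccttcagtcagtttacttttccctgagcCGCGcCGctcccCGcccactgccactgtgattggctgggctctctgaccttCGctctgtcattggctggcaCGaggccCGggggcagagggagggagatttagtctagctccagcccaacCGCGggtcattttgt
The Atf7ip promoter held 29 CG dinucleotides, a number that 12.9% of all 32841 promoters of this length reach, and the Atf7ip2 promoter held 17, which 31.4% reach. The median over all promoters was 7. Among the other genes the count ran from 15 for Setdb1 to 53 for the first of the listed Pphln1 promoters, and the alternative Morc2a promoter held 0. These counts describe sequence only.

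Atf7ip2 (ENSMUSG00000039200, chromosome 16) was near the detection limit, with 7 to 23 reads per library. It was at 0.255, 0.407 and 0.151 RPM in the control libraries and at 0.501, 0.421 and 0.323 RPM with a Setdb1 hairpin, so the groups overlapped. With 5-aza it was at 0.269, 0.215 and 0.261 RPM in the control libraries and at 0.422, 0.440 and 0.338 RPM with a Setdb1 hairpin, without overlap. An exact permutation test gave p = 0.2 without 5-aza and p = 0.1 with 5-aza (two-sided, adjusted p = 0.4 for both over 4 comparisons), and 0.1 is the smallest p that 3 against 3 libraries allow, so this test could not reach 0.05. Fitted without the filter, the log2 difference was 0.71 without 5-aza (SE 0.32, adjusted p = 0.228) and 0.69 with it (SE 0.32, adjusted p = 0.191). Neither passed at this depth.

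Mbd1 (ENSMUSG00000024561, chromosome 18), the methyl-CG binding partner, was at 23.4, 21.2 and 19.1 RPM in the control libraries and at 29.8, 26.8 and 29.0 RPM with a Setdb1 hairpin. The groups did not overlap, although the control values spread by several RPM. The fitted log2 fold change was 0.43 (SE 0.08, adjusted p = 0.00421). After the Atf7ip intervals this was the largest rise among the 9 tested intervals.

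Smchd1 (ENSMUSG00000024054, chromosome 17) was at 94.3, 95.4 and 97.4 RPM in the control libraries and at 119, 113 and 108 RPM with a Setdb1 hairpin, without overlap. The fitted rise was 0.24 on the log2 scale (SE 0.04, adjusted p = 0.00498). With Nons and shSetdb1.4 libraries alone, 2 per group, it was 0.20 and no longer passed (adjusted p = 0.107).

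Trim28 (ENSMUSG00000005566, chromosome 7), the corepressor that brings Setdb1 to KRAB zinc finger sites, was at 202, 205 and 209 RPM in the control libraries and at 247, 228 and 226 RPM with a Setdb1 hairpin. The groups did not overlap, and the highest value was that of shSetdb1.6. In log2 terms the change was 0.19 (SE 0.04, adjusted p = 0.0144). The call was lost without control replicate 1 (adjusted p = 0.0564), without Setdb1 replicate 1 (adjusted p = 0.0655) and with Nons and shSetdb1.4 alone (adjusted p = 0.136).

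Mphosph8, Pphln1 and Morc2a had the smallest differences of the 9 tested intervals. Mphosph8 (chromosome 14), the HUSH subunit that binds methylated H3K9, was at 53.0, 54.1 and 54.6 RPM in the control libraries and at 55.7, 57.4 and 60.4 RPM with a Setdb1 hairpin. Its log2 difference was 0.10 (95% interval 0.00 to 0.20, adjusted p = 0.181). Pphln1 (chromosome 15), which encodes periphilin, another HUSH subunit, was at 66.8, 65.3 and 65.8 RPM in the control libraries and at 69.0, 67.8 and 68.3 RPM with a Setdb1 hairpin. Its log2 difference was 0.05 (95% interval -0.03 to 0.13, adjusted p = 0.419).

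Morc2a (chromosome 11), the ATPase that HUSH recruits, was at 77.1, 75.0 and 75.1 RPM in the control libraries and at 83.0, 79.5 and 78.4 RPM with a Setdb1 hairpin. Its log2 difference was 0.08 (95% interval 0.01 to 0.16, adjusted p = 0.132). For none of these 3 genes did the groups overlap, which also held for 34.4% of all tested intervals. The upper ends of the intervals place any rise of Mphosph8, Pphln1 and Morc2a below those of both Atf7ip intervals.

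**Figure D3:**
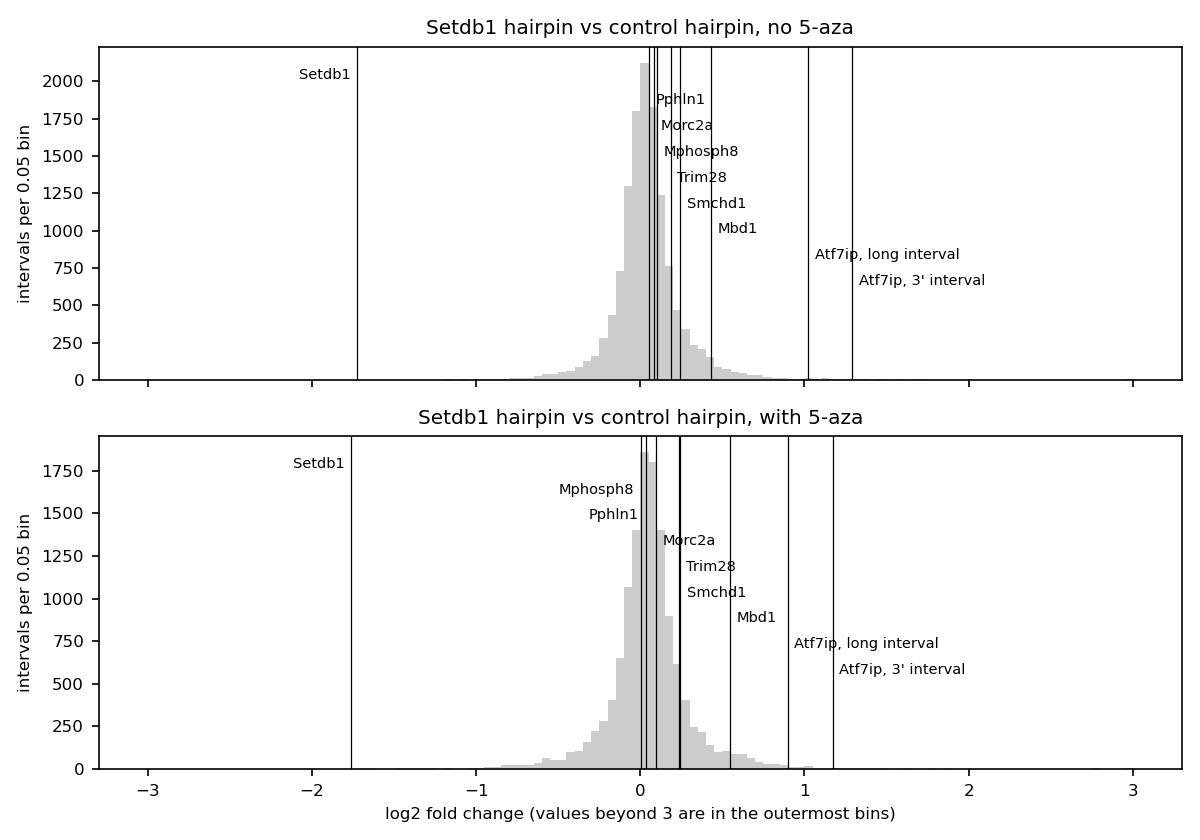
Histograms of the log2 fold change of all 13134 tested intervals (x axis; y axis, number of intervals per bin) for Setdb1 hairpin against control hairpin, without 5-aza (top) and with 5-aza (bottom), with a line for each of the 9 tested intervals. Setdb1 lies at -1.73 and -1.76, the Atf7ip intervals lie in the right tail, and Mphosph8, Pphln1 and Morc2a lie inside the bulk of the distribution.

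With 5-aza in both arms, the same comparison gave the same calls: 5 of the 8 intervals other than Setdb1 were higher and none lower, where 19.9% of all tested intervals were called, 14.5% higher and 5.37% lower. Setdb1 was at 43.9, 42.7 and 43.4 RPM in the control libraries and at 10.5, 14.5 and 13.7 RPM with a Setdb1 hairpin (log2 fold change -1.76, SE 0.11, adjusted p = 1.25e-06). The long Atf7ip interval was at 90.0, 103 and 93.8 RPM in the control libraries and at 178, 188 and 169 RPM with a Setdb1 hairpin. The groups did not overlap for either gene, which held for 34.7% of all tested intervals. The log2 fold change of Atf7ip was 0.90 (SE 0.06) for the long interval and 1.17 (SE 0.07) for the 3′ interval.

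Among the smaller rises, Mbd1 reached 34.2, 30.7 and 32.7 RPM with a Setdb1 hairpin and 5-aza, from 24.1, 21.6 and 21.2 RPM with 5-aza alone (log2 fold change 0.55, SE 0.08, adjusted p = 0.000729). Smchd1 rose by 0.24 on the log2 scale (SE 0.04, adjusted p = 0.00353), and Trim28 by 0.24 (SE 0.04, adjusted p = 0.00255). The Trim28 call held here in all 16 alternative analyses, which it did not without 5-aza. Morc2a (0.09, adjusted p = 0.0741), Mphosph8 (0.00, adjusted p = 0.966) and Pphln1 (0.03, adjusted p = 0.565) again did not pass. The pair of hairpin comparisons used separate libraries. These shared hairpins, replicate labels and 1 fit, so the comparisons are not independent of each other. Centring each library on its median gave 1199 of 2463 called intervals higher over the whole table, against 1904 of 2609 as deposited.

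**Figure D4:**
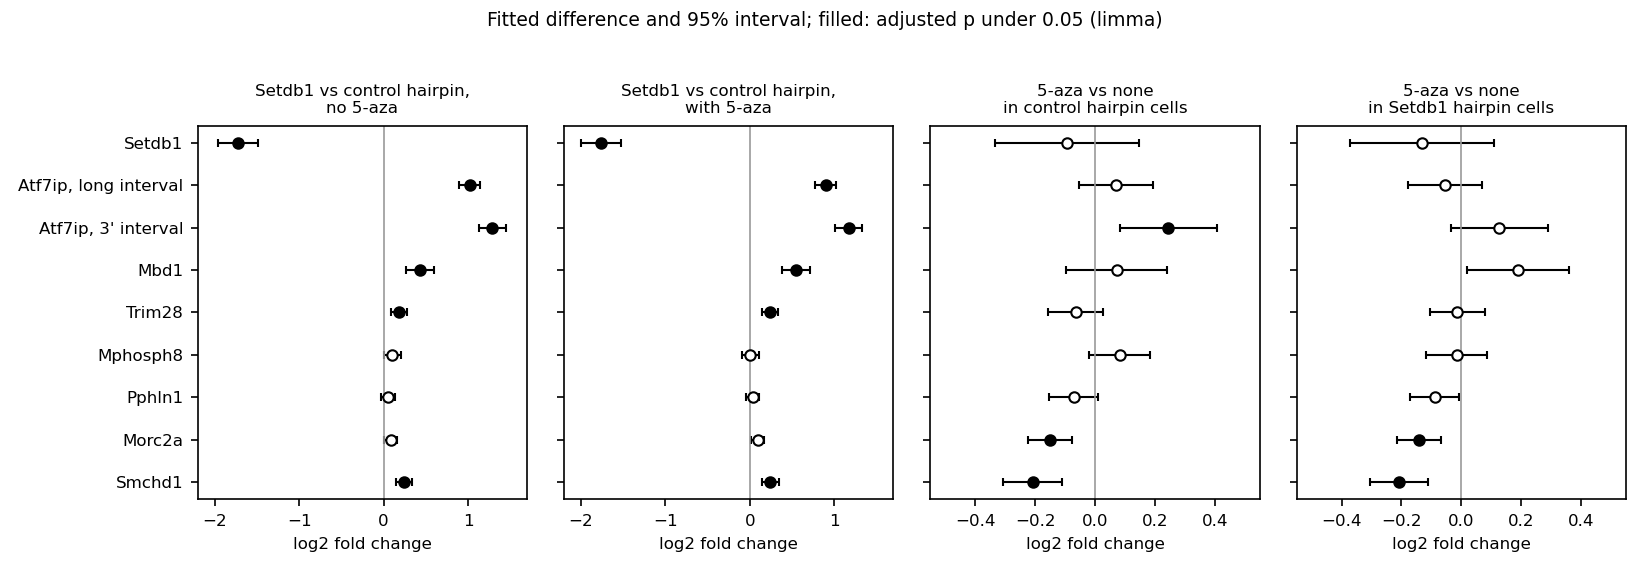
Fitted log2 fold change (x axes; the 5-aza panels have a narrower scale) of the 9 tested intervals (y axis) in 4 comparisons, with 95% intervals; filled points have an adjusted p under 0.05. In both hairpin panels Setdb1 lies to the left of 0 and Atf7ip, Mbd1, Trim28 and Smchd1 are filled to the right of 0, and in both 5-aza panels Morc2a and Smchd1 are filled to the left of 0.

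The next comparisons asked what 5-aza did to these genes. A pair of them, Smchd1 and Morc2a, fell in control hairpin cells and in Setdb1 hairpin cells, and the 3′ interval of Atf7ip rose in control hairpin cells. In control hairpin cells 3 of the 9 intervals were called, 1 higher and 2 lower, where 18.8% of all tested intervals were called. In Setdb1 hairpin cells 2 were called, both lower, where 28.9% of all tested intervals were called. Over the whole table most calls were higher, 1769 of 2471 in control hairpin cells and 2805 of 3792 in Setdb1 hairpin cells. After median centring these numbers were 1285 of 2620 and 1833 of 3506, and Smchd1 and Morc2a were still called lower. Residuals of Setdb1 hairpin libraries of the same hairpin and replicate had r of 0.413 to 0.634. This lay inside the range of -0.686 to 0.668 among other library pairs. In control hairpin cells r was 0.0999 to 0.586. These values neither establish nor exclude a pairing. The study describes cells that were transduced first and then grown with or without the drug. With that pairing as a block 4 intervals were called in Setdb1 hairpin cells. The added calls were Setdb1 (-0.13, adjusted p = 0.0366) and Mbd1 (0.19, adjusted p = 0.00608). Without Setdb1_5aza replicate 1, which carried shSetdb1.6, and with no block, the Setdb1 difference was 0.0141 (adjusted p = 0.918).

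Smchd1 went from 94.3, 95.4 and 97.4 RPM to 81.5, 87.1 and 80.1 RPM with 5-aza in control hairpin cells, without overlap. This was a log2 fold change of -0.21 (SE 0.04, adjusted p = 0.00872). In Setdb1 hairpin cells it went from 119, 113 and 108 RPM to 101, 94.7 and 98.9 RPM (log2 fold change -0.21, SE 0.04, adjusted p = 0.00641). A Setdb1 hairpin with 5-aza thus left Smchd1 at 98.1 ± 3.10 RPM, beside 95.7 ± 1.58 RPM in control cells without the drug.

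Morc2a went from 77.1, 75.0 and 75.1 RPM to 67.8, 69.2 and 67.8 RPM with 5-aza in control hairpin cells (log2 fold change -0.15, SE 0.03, adjusted p = 0.0106). In Setdb1 hairpin cells it went from 83.0, 79.5 and 78.4 RPM to 73.9, 71.3 and 73.3 RPM (log2 fold change -0.14, SE 0.03, adjusted p = 0.0106). The groups did not overlap in either background, which held for 37.6% and 43.4% of all tested intervals. With Nons and shSetdb1.4 libraries alone neither call passed (adjusted p = 0.0813 and 0.0716).

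The 3′ Atf7ip interval was at 11.6, 12.3 and 11.3 RPM with 5-aza in control hairpin cells, above the 3 libraries without it. The fitted log2 fold change was 0.24 (SE 0.07, adjusted p = 0.0390). This call held in 6 of 16 alternative analyses. It was lost without control replicate A or B (adjusted p = 0.143 and 0.106) and without control_5aza replicate 1, A or B (adjusted p = 0.0735, 0.0985 and 0.0641). The long Atf7ip interval did not pass in either background (0.07 and -0.05). Setdb1 itself went from 46.4, 46.1 and 46.3 RPM to 43.9, 42.7 and 43.4 RPM with 5-aza in control hairpin cells. These groups did not overlap, which held for 37.6% of all tested intervals. The fitted log2 difference was -0.09 (95% interval -0.33 to 0.15) and was called in 1 of 16 alternative analyses. The fit shares 1 spread over the 4 groups. For Setdb1 the SD was 1.72 and 2.16 RPM in the Setdb1 hairpin groups, against 0.103 and 0.631 RPM in the control hairpin groups.

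A hairpin by 5-aza interaction was fitted to ask whether the hairpin effect differed between cells with and without the drug. None of the 9 intervals was called (limma), and 0 had an unadjusted p under 0.05, where 0.388% of all tested intervals were called. For the long Atf7ip interval the interaction was -0.12 (95% interval -0.30 to 0.05). For Smchd1 it was 0.00 (95% interval -0.14 to 0.14). For Mbd1 it was 0.12 (95% interval -0.12 to 0.36).

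The hairpins of each kind were then compared, over both drug conditions. Setdb1 was at 26.2% of the control mean with shSetdb1.6 and at 32.5% with shSetdb1.4 without 5-aza, and at 24.1% and 32.6% with it. shSetdb1.6 had 1 library per condition, and both share a hairpin and replicate, so they were taken as 1 culture, against 2 of shSetdb1.4. The log2 difference between the hairpins was -0.37 (SE 0.05, adjusted p = 0.0299) with the libraries taken as independent, and the adjusted p was 0.0436 with culture as a random term. Setdb1 was the only one of the 9 intervals called in either fit, where 0.0305% of all tested intervals were. This call held in 7 of 19 alternative analyses, with adjusted p from 0.0269 to 0.684. Of the 12 analyses that each left out 1 library, it held without control_5aza replicate A and without Setdb1 replicate B (adjusted p = 0.0397 and 0.0387), and was lost without any other.

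The levels of Atf7ip, Mbd1, Smchd1 and Trim28 lay above the control mean with either hairpin, although without 5-aza Smchd1 and Trim28 did not pass in shSetdb1.4 libraries alone, as given above. Without 5-aza, the long Atf7ip interval was at 210% of the control mean with shSetdb1.6 and 200% with shSetdb1.4, a log2 difference over both conditions of 0.03 (95% interval -0.10 to 0.17). Mbd1 was at 141% and 132%, Smchd1 at 124% and 115%, and Trim28 at 120% and 111%. For Trim28 the log2 difference between the hairpins was 0.09 (95% interval 0.01 to 0.17), which was not called. Between Luc and Nons none of the 9 intervals was called (limma) and 1 had an unadjusted p under 0.05, where 0.00761% of all tested intervals were called. That interval was Mbd1, higher with Luc by 0.19 on the log2 scale (95% interval 0.07 to 0.32, adjusted p = 0.154).

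Other genes of these pathways were read from a list of 32 genes, of which 30 were tested and Morc1 and Morc2b were not. The list was chosen with earlier results of these data known, so its counts only describe it. Whether they hold after median centring was not tested. With a Setdb1 hairpin 11 rose and 0 fell without 5-aza, where 9.01% of all tested intervals were called higher and 3.4% lower, with a median log2 fold change of 0.14 against 0.03 for all tested intervals. The largest rise was that of Resf1 (listed as 2810474O19Rik), a retroelement silencing factor that binds Setdb1, from 49.8 ± 0.751 to 105 ± 10.5 RPM (SD, n = 3; log2 fold change 1.07, SE 0.09). Trim24, a relative of Trim28, rose from 53.5 ± 2.82 to 89.5 ± 9.41 RPM (0.74, SE 0.08). The chromatin assembly subunit Chaf1b rose by 0.41 on the log2 scale (SE 0.11). Cbx3, an HP1 protein, rose by 0.36 (SE 0.08), with the caution that it shares sequence with processed copies. With 5-aza Cbx3 was at 0.06 (adjusted p = 0.622).

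With 5-aza 11 of the 30 genes rose and 0 fell with a Setdb1 hairpin, where 14.5% of all tested intervals were called higher and 5.37% lower. They were again led by Resf1 (1.07, SE 0.09), Trim24 (0.97, SE 0.08) and Chaf1b (0.62, SE 0.11), with Chaf1a at 0.43 (SE 0.10). Fam208a (listed as D14Abb1e), which encodes the HUSH subunit Tasor, was chosen after its values were seen because it completes the HUSH complex. It rose from 27.6 ± 0.106 to 33.4 ± 1.08 RPM without 5-aza (log2 fold change 0.27, SE 0.05, adjusted p = 0.00683). Of the HUSH subunits it was thus the one called, with a rise of similar size to that of Smchd1.

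After 5-aza, 1 gene of this list rose and 2 fell in control hairpin cells, and 2 rose and 4 fell in Setdb1 hairpin cells. That is 3 and 6 of 30, not above the 18.8% and 28.9% called among all tested intervals. Morc4, a relative of Morc2a, fell in both (-0.26, SE 0.07, and -0.36, SE 0.07), as did Fam208b, a paralog of Fam208a (-0.17 and -0.20, SE 0.04). The rises were Zfp809, a KRAB zinc finger protein that targets retroviral sequence, in control hairpin cells (0.20, SE 0.06), and the H3K9 methyltransferase Ehmt2 in Setdb1 hairpin cells (0.20, SE 0.04). Atrx fell by 0.20 on the log2 scale (SE 0.05) in Setdb1 hairpin cells. The other calls there, named after their values were seen, were Hdac1 (0.19, SE 0.05) and Trim33 (-0.17, SE 0.04). No gene of the list was called for the interaction.

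Likeness to Setdb1 was described by Pearson's r of log2 RPM over the 12 hairpin libraries, which share groups and hairpins. The intervals most like it were Slc9a3r2 (0.997), Kank4 (0.992), Efcab7 (0.991), Rims2 (0.988) and Rab6b (0.980). Slc9a3r2 went from 43.4 to 29.9 RPM between control and Setdb1 hairpin cells, and Rims2 from 3.22 to 0.255 RPM. At the other end of the order, the long Atf7ip interval was 20th from last of 13133, with r = -0.98. The 3′ Atf7ip interval (-0.97), Mbd1 (-0.93) and Trim28 (-0.93) were also strongly opposed. Smchd1 (-0.71) lay between, 1959th from last, while Morc2a (-0.47), Mphosph8 (-0.43) and Pphln1 (-0.34) were not near either end.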

How the data were processed

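Poly(A) RNA of 13 MEF libraries had been sequenced, and the authors deposited 1 table of log2 RPM values per gene interval and library, on build mm10. CASAVA 1.4 is named in the submitters' processing notes. The aligner, annotation, strand setting and normalization of this table are not given in the sources used here. In each library 99.96% to 99.99% of the values above the lowest corresponded to a whole number of reads (tolerance 0.1 read), taking empty intervals as set to 0.9 read, so reads per gene were recovered for description only.

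Groups followed the sample labels, with 12 hairpin libraries in 4 groups of 3. The log2 RPM values were fitted as deposited (R 4.3.3, limma 3.58.1, moderated with a mean-variance trend), with group as the term and all 12 libraries together. Intervals with at least 1 RPM in at least 3 libraries were tested (13134 of 25965). Tests were two-sided, with Benjamini-Hochberg adjustment over all tested intervals, and a call is an adjusted p under 0.05. Hairpins were compared in a second fit with a term per hairpin and a 5-aza term for each kind of hairpin. Atf7ip2 and the Atf7ip interval ratio were tested by exact permutation. The scripts were tested on simulated data.

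Residuals of the libraries with and without 5-aza that shared hairpin and replicate were correlated. In Setdb1 hairpin cells r was 0.472, 0.634 and 0.413, and in control hairpin cells it was 0.586, 0.149 and 0.0999. Between libraries of different groups that shared neither hairpin and replicate nor replicate label and drug, r ran from -0.686 to 0.668. The reported 5-aza comparisons used no pairing in either background. A block for hairpin and replicate was an alternative in both.

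Guide sequences came from the study's list of hairpin oligos and were matched to GENCODE M21 transcripts (GRCm38), and promoters came from RefSeq (GRCm38.p6). Figures were drawn with Python 3.11.15, pandas 2.3.3 and matplotlib 3.10.9. The genes and lists described here were chosen with earlier results of these data known. All 9 genes are reported whatever their values. Of the pathway list, up to 4 called genes with the largest absolute change are named per comparison, with any further gene said to be chosen after its values were seen, and the 5 intervals most like Setdb1 by Pearson's r are named. Alternatives were log2(RPM + 1), no filter or a filter at 5 RPM, median centring, quantile normalization, no trend, each library left out, only the groups compared, only Nons and shSetdb1.4 libraries, and the replicate block. Median centring together with the block was added after seeing the data. Errors are SD over 3 libraries for RPM and standard errors of the fit for log2 fold changes. At the implied depth of 41.9 to 58.8 M reads per hairpin library, 1 read equals 0.0170 to 0.0239 RPM.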

Additional observations from a re-analysis of the deposited data

Results flagged for a closer look

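A library treated with 5-aza has no hairpin in its labels and stands in no group. Its name in the table holds PGK. The study defined variants of the PGK strain from a PGK sample. Whether this library is that sample, and so differs in genotype from the hairpin libraries, is not stated. It was shallower than the others, with 17.4 M reads in genes, and has no replicate. For 5 of the 9 tested intervals, and for Atf7ip2, its value lay above all 3 control hairpin libraries with 5-aza, as it did for 37.6% of all tested intervals. Pphln1, at 59.7 RPM, lay below them (60.3 to 65.3), as did 38.1% of all tested intervals. Setdb1 was at 47.0 RPM, beside 42.7 to 43.9 RPM in those libraries. The 3′ interval of Atf7ip was at 14.0 RPM (11.3 to 12.3), Trim28 at 220.3 RPM (191 to 204), Morc2a at 84.6 RPM (67.8 to 69.2) and Smchd1 at 90.9 RPM (80.1 to 87.1). Atf7ip2 was at 0.294 RPM, from 6 reads (0.215 to 0.269). The long Atf7ip interval, at 102 RPM, lay inside the control range, and Setdb1 lay above every library with a Setdb1 hairpin. These are values of 1 library, with no test.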

How the results depend on the processing

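The calls of Setdb1, both Atf7ip intervals and Mbd1 for the Setdb1 hairpin held in all 16 alternatives with and without 5-aza, as did those of Smchd1 with 5-aza and for 5-aza in both backgrounds, and that of Trim28 with 5-aza. The number of intervals called was 6 of 9 for the Setdb1 hairpin with 5-aza under every alternative and 4 to 6 without it. In each of these comparisons the cause of a lost call was not tested.

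For 5-aza in control hairpin cells 5 intervals, not 3, were called with median centring and the replicate block together. For 5-aza in Setdb1 hairpin cells 1 interval, not 2, was called with Nons and shSetdb1.4 libraries only, 4 with the replicate block, and 5 with median centring and the replicate block together. Pphln1 was called lower after 5-aza with median centring, by -0.12 with a control hairpin (adjusted p = 0.0290) and by -0.15 with a Setdb1 hairpin (adjusted p = 0.00842). Between shSetdb1.6 and shSetdb1.4, 0 intervals were called with no filter or with no trend, and 0 to 1 when single libraries were left out. The replicate block changed no other call of the intervals described. Calls over the whole table moved more. For the Setdb1 hairpin they were 470 (Nons and shSetdb1.4 libraries only) to 2388 (block) against 1630 without 5-aza, and 1256 (without Setdb1_5aza replicate 1) to 3751 (block) against 2609 with it. For 5-aza they were 1259 (without control replicate B) to 3902 (block) against 2471 in control hairpin cells, and 2160 (without Setdb1_5aza replicate B) to 5276 (block) against 3792 in Setdb1 hairpin cells. For the interaction they were 8 (Nons and shSetdb1.4 libraries only) to 174 (median centring and block) against 51.

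Signs turned only for differences that were not called as reported. For the Setdb1 hairpin with 5-aza, Mphosph8 was -0.0574 with median centring, with and without the block, -0.0425 with quantile normalization, and -0.0403 to 0.0283 when single libraries were left out. Pphln1 was -0.0284 with median centring, with and without the block, and -0.0143 with quantile normalization. With single libraries left out, Mbd1 after 5-aza in control hairpin cells ran from -0.0036 to 0.14. In Setdb1 hairpin cells after 5-aza, Setdb1 ran from -0.23 to 0.0141, Trim28 from -0.0361 to 0.0270 and Mphosph8 from -0.0425 to 0.0162, and Trim28 was 0.0065 with Nons and shSetdb1.4 libraries only.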
